A study of Mus musculus with 354 samples.

Results

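Serum amyloid A is a family of 4 mouse genes, Saa1, Saa2, Saa3 and Saa4, and all 4 were measured in the liver of mice given tolvaptan or vehicle. The members were chosen by symbol, as the probe sets annotated to these names, and they account for 5 of the 42597 probe sets and for 4 of the 14125 genes that could be tested. The family was picked because of its tolvaptan minus Control differences and its Control strain means, so those values are given as a description of the animals, with no test. Liver RNA of 354 male mice had been hybridised to Affymetrix HT_MG-430 PM arrays, 1 animal per array. They belonged to 45 Collaborative Cross lines, which are recombinant inbred mice descended from several founders, and the labels name no engineered allele. In each strain 1 group received vehicle (labelled Control, 179 animals in all) and 1 received tolvaptan, an antagonist of the vasopressin V2 receptor (175 animals), and livers were taken after 24 h. In both groups age was 8 to 10 weeks, dosing followed about 7 days of acclimation, and food was withheld for roughly 18 h before necropsy. Of the 90 groups 85 held 4 animals, 4 held 3 and 1 held 2.

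The serum amyloid A proteins are small apolipoproteins of high density lipoprotein. Saa1 and Saa2 encode the classical acute phase forms, which hepatocytes release in large amounts when interleukin-1, interleukin-6 and tumour necrosis factor reach them, largely through NF-kB, STAT3 and C/EBP factors. Saa3 is an inducible form also made outside the liver, by macrophages and adipocytes among others, and Saa4 is the constitutive form, which inflammation changes little.

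Levels below are log2 values of RMA, the summary method that the submitters applied, so a step of 1 is a doubling of signal. They can be compared between animals for a given probe set but not between probe sets. Saa1 (Entrez gene 20208) was read by probe set 1450788_PM_at, Saa2 (20209) by 1449326_PM_x_at and Saa3 (20210) by 1450826_PM_a_at. Saa4 (20211) was read by 1419318_PM_at, used throughout, and by a second probe set, 1419319_PM_at. The x in the Saa2 name is the maker's mark for probes that can also bind related transcripts, so signal from Saa1 and Saa2 may be partly shared. All 5 probe sets lay above the median of the array on all 354 arrays.

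The promoters are shown because they show how the members are related in sequence. In the RefSeq annotation of GRCm38.p6 all 4 genes lie together on chromosome 7, and their upstream windows span 36156 bases. The 250 bases before each start site are printed from 5′ to 3′ along the gene, at chr7:46742981-46743230 (minus strand) for Saa1, chr7:46751583-46751832 (plus strand) for Saa2, chr7:46715677-46715926 (minus strand) for Saa3 and chr7:46732604-46732853 (minus strand) for Saa4. Capitals mark matches to TTNNGNAA, a short form of the C/EBP site, on either strand.
Saa1: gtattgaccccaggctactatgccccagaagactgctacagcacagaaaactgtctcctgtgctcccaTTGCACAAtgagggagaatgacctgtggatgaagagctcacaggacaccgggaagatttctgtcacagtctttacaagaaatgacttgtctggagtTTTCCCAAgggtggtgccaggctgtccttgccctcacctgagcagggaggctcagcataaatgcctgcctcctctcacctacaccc
Saa2: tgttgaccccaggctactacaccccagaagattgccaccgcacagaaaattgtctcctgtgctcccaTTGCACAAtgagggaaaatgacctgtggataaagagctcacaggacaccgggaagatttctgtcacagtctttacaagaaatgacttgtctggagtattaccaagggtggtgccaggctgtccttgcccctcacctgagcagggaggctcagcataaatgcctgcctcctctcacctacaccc
Saa3: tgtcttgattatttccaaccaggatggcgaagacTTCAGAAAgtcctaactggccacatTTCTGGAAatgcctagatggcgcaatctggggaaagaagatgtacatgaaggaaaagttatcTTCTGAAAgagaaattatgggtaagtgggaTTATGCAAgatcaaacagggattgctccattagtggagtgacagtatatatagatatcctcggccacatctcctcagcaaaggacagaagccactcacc
Saa4: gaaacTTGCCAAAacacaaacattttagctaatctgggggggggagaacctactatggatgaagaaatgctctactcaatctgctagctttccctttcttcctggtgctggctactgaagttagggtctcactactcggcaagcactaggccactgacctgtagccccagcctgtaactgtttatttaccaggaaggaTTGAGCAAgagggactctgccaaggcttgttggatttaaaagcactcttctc

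Saa1 and Saa2 are transcribed away from each other, with 8352 bases between their windows, and 238 of 251 aligned positions of the windows were identical (94.8%). Saa3 shared 52.5% of aligned positions with Saa1 and 51.8% with Saa2. Saa4 shared 46.7% with Saa2, 47.1% with Saa1 and 48.9% with Saa3. The Saa1 window held 2 C/EBP matches, that of Saa2 held 1, that of Saa3 held 4 and that of Saa4 held 2. Such a match was present in 36.8% of all 32851 promoter windows in the table, so it is common. The match TTGCACAA begins 182 bases before the start of Saa1 and 183 before that of Saa2. The second Saa1 match, TTTCCCAA, begins 86 bases before the start, and its letters were not matched in Saa2. No window held a match on either strand to the NF-kB consensus (3.90% of all windows), to the STAT motif TTCNNNGAA (7.02%) or to TATAAA (12.4%). These are letter matches only, and nothing about binding follows from a match or its absence.

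Some libraries carried profiles unlike those of their labelled strain, in most cases that of another strain. Over the 500 probe sets that best separate the strains, 34 arrays had a correlation of at most 0.33 with the median profile of their own label, and the remaining 320 had at least 0.65. Among the 320, every array of AU8024 and AU8033 correlated better with the other strain of that pair than with its own label. Every AU8021 array correlated better with AU18042, and the AU18042 arrays correlated similarly with both. Whether these labels name distinct strains was not tested. These 34 came from 19 strains. They carried a Control label in 27 cases and a Tolvaptan label in 7, and 22 lay in scan 2, where a scan is a date on which arrays were read. Scan 1 held 1 animal of every group, and scans 2 to 6 held 93, 93, 46, 22 and 10 arrays. All labels were kept, and values without the 34 arrays, called off-strain arrays below, are given beside the named strain values, the averaged differences and the correlations between members. Whether their treatment labels hold was not tested. Most of the 34 correlated closely with the profile of another strain. Animal 21, labelled AU8002, correlated with OR867 at 0.94. Animal 364, labelled OR5119, correlated with AU8005 at 0.93, and animal 404, labelled AU8005, with OR5119 at 0.91. Animals 94, 101 and 102 matched no other strain above 0.34. Levels of the hepatocyte markers, Alb and Apob among 8, matched the labelled tissue: their mean level per array lay between 11.11 and 12.50 (log2), against array medians of 2.81 to 3.02 over all probe sets.

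Saa3 showed the highest averaged difference of the family. Its Control level was 7.43 ± 1.19 (SD, n = 179, log2), ranging from 4.59 through a median of 7.29 to 12.84. Its Tolvaptan level was 8.33 ± 1.51 (SD, n = 175), ranging from 4.63 through 8.24 to 12.74. The ranges overlapped almost entirely, and the shift was in the body of the distribution: 94 of 175 Tolvaptan animals (53.7%) lay above the Control 75th percentile of 8.12, and 21 (12.0%) lay below the Control 25th percentile. Averaged with equal weight per strain, Tolvaptan minus Control was 0.91 ± 0.12 (SE, log2), a ratio of 1.87. The strain difference was above 0 in 36 of 45 strains and ran from -0.90 to 3.35, with a median of 0.94.

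Saa1, a main circulating acute phase form, showed a smaller difference. Its Control level was 11.82 ± 1.18 (SD, n = 179, log2), from 7.28 through 12.20 to 13.28, and its Tolvaptan level was 12.10 ± 1.09 (SD, n = 175), from 8.56 through 12.45 to 13.54. Both groups had a dense upper edge and a long lower tail. The highest value of any probe set on any array was 13.96, so Saa1 lay near the top of the array's range. The part of this limit in the Saa1 differences was not tested. The averaged difference was 0.29 ± 0.10 (SE, log2), a ratio of 1.22, and it was above 0 in 32 of 45 strains. Saa2, the partner gene of Saa1, stood at 9.82 ± 1.81 under Control (4.17 through 10.34 to 12.48) and 10.16 ± 1.83 under Tolvaptan (3.81 through 10.84 to 12.22). Its averaged difference was 0.36 ± 0.16 (SE, log2), a ratio of 1.28, above 0 in 29 strains. The Tolvaptan animals above the Control 75th percentile numbered 70 for Saa1 (40.0%) and 72 for Saa2 (41.1%).

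Saa4, the constitutive form, was nearly level. It stood at 9.83 ± 0.87 under Control (SD, n = 179, log2), from 7.65 through 9.90 to 12.07, and at 9.82 ± 0.90 under Tolvaptan (SD, n = 175), from 7.04 through 9.89 to 11.99. The averaged difference was -0.01 ± 0.06 (SE, log2), with 20 of 45 strains above 0, and the second probe set gave 0.00024 and also 20 strains. Of the Tolvaptan animals 44 (25.1%) lay above the Control 75th percentile. Over all 14125 genes the median number of strains above 0 was 23. The strain differences were used to choose the family, so nothing is read from setting its counts beside this median.

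**Figure D1:**
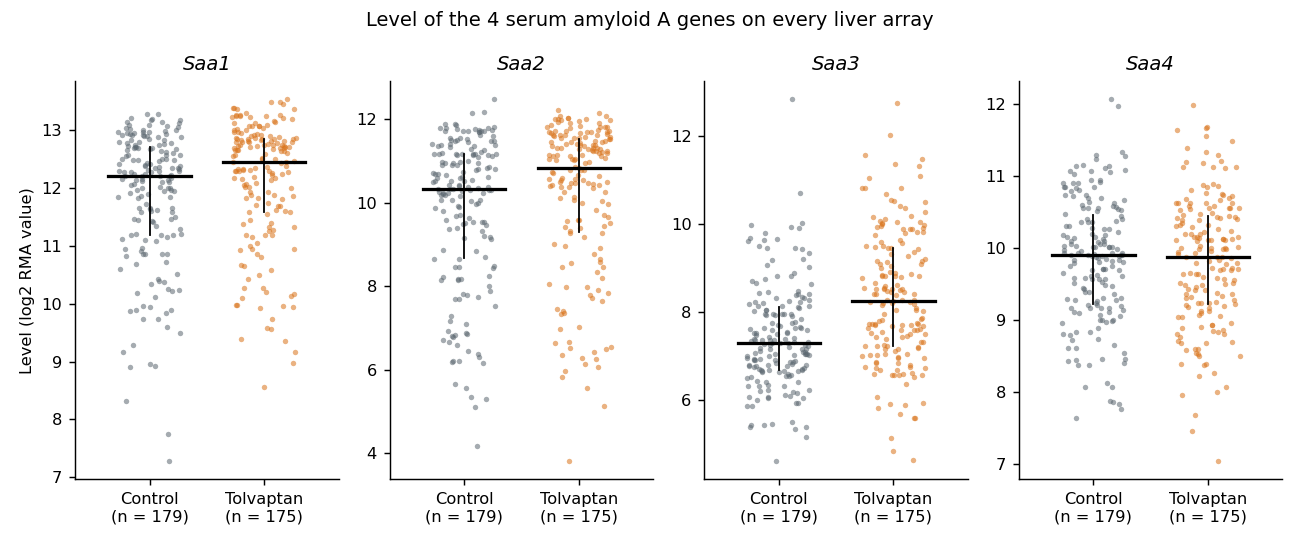
Level (log2 RMA value) of Saa1, Saa2, Saa3 and Saa4 on every array, with 1 point per animal, for Control (grey, n = 179) and Tolvaptan (orange, n = 175); the horizontal line is the median and the vertical line spans the 25th to 75th percentile, and each panel has its own axis. The Saa3 median is 7.29 under Control and 8.24 under Tolvaptan, while the Saa4 medians are 9.90 and 9.89.

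The off-strain arrays and the scans moved these values. Without the 34 arrays the averaged difference was 0.76 for Saa3, 0.20 for Saa1, 0.18 for Saa2 and -0.01 for Saa4, so the Saa2 value moved by more than 1.5 times. In the 26 strains that held no such array it was 0.99 for Saa3, 0.34 for Saa1, 0.41 for Saa2 and -0.01 for Saa4. With the off-strain arrays left out, the strains above 0 numbered 34 of 45 for Saa3, 27 for Saa1, 26 for Saa2 and 18 for Saa4. Within scan 1, with all 45 strains, the differences were 0.55 for Saa3, -0.09 for Saa1 and -0.26 for Saa2. The sign of Saa1 and Saa2 therefore turned in that scan, while that of Saa3 did not. In scan 3, with both groups of 16 strains, they were 1.60, 0.61 and 0.86. Scan 2 gave 0.86, 0.39 and 0.39, scan 4 gave 0.87, 0.53 and 0.77, and scan 5, with 4 strains, gave 0.59, -0.01 and 0.39. Scan 6 held both groups of 1 strain only and gave -0.51, -0.68 and -1.13. Saa4 lay between -0.20 and 0.34 over the 6 scans. Across the scans Saa3 was above 0 in scans 1 to 5, and the part of the scan in the family's values was not tested further.

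The strains differed in how far Saa3 separated the groups. In 7 strains every Tolvaptan animal lay above every Control animal: AU8004, AU8033, AU8046, AU8048, IL16513, OR5035 and OR5119. Over all pairs of a gene and a strain, 1.55% were separated in this way with Tolvaptan higher and 1.5% with Tolvaptan lower; the strain differences were used to choose the family, so nothing is read from the comparison. No strain had every Tolvaptan animal below every Control animal for any member. The strains below are named by a rule: the 3 highest and 2 lowest differences of each member, and those whose groups did not overlap.

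In AU8033, the strain with the highest Saa3 difference, the Control animals measured 6.04, 6.65, 7.37 and 7.42 (log2) and the Tolvaptan animals 9.43, 9.74, 10.67 and 11.04. The lowest treated animal thus lay about 2 units above the highest Control animal, and the difference of means was 3.35, a ratio of 10.2. Without 3 off-strain arrays of this strain it was 2.99. The arrays of AU8033 that remained correlated better with the AU8024 profile than with their own. OR5119 was similar, with Control animals at 6.79, 6.89, 7.29 and 7.95, Tolvaptan animals at 9.20, 9.56, 10.81 and 11.57, and a difference of 3.06, or 3.07 without its off-strain array. In these strains the separation held for each treated animal.

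OR3154 had a difference of 2.67 but overlapping groups. Its Control animals measured 5.93, 6.86, 6.92 and 7.04, and its Tolvaptan animals were spread over 6.72, 8.88, 10.51 and 11.32. A single treated animal thus stayed within the Control range while another exceeded every Control animal of the strain by over 4 units. AU8048 measured 5.84, 6.84, 7.63 and 7.68 under Control and 8.03, 9.31, 9.78 and 10.54 under Tolvaptan, a difference of 2.42. AU8004 had close groups on both sides, 7.30, 7.60, 7.69 and 7.84 against 9.16, 10.04, 10.18 and 10.41, and a difference of 2.34. The SDs there were 0.23 under Control and 0.55 under Tolvaptan, small for this gene.

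OR5035 measured 7.32, 7.65, 8.22 and 8.40 under Control and 9.47, 9.63, 9.94 and 10.80 under Tolvaptan, a difference of 2.06. IL16513 already had a high Control level, 7.63, 8.32, 8.66 and 9.33, and its Tolvaptan animals lay close together at 9.88, 9.90, 10.11 and 10.51, a difference of 1.61. AU8046 measured 6.08, 6.54, 6.57 and 7.06 against 7.32, 7.45, 8.39 and 9.80, a difference of 1.68. The last value came from an off-strain array, as did the lowest Control value, and without them the difference was 0.996. Without off-strain arrays, among the 35 strains that kept at least 3 animals in both groups, Saa3 separated the groups in 6. These were the separated strains named above other than AU8033, which kept 2 Control arrays and was not among the 35. The share over all genes was not counted for this setting, here or for the other members, so nothing is read from these counts.

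At the other end, OR15155 had the lowest Saa3 difference, -0.90. Its Control animals measured 6.78, 8.23, 9.63 and 9.67 and its Tolvaptan animals 6.56, 6.72, 7.16 and 10.28, so the groups overlapped throughout and 1 treated animal was the highest of the 8. Without its off-strain Control array the difference was -0.55, and OR13421 was then the lowest strain. OR13421 measured 6.76, 7.38, 8.43 and 9.91 under Control against 6.56, 7.02, 7.57 and 8.58, a difference of -0.69. Its lower pair of Control animals came from off-strain arrays, and without them the difference was -1.74. The sign turned without such arrays in 4 strains: AU8024 went from 0.68 to -1.22, OR13067 from 0.17 to -0.87, OR477 from 0.07 to -0.75 and AU8034 from -0.17 to 0.17. That left 34 of 45 strains above 0. In 20 of 45 strains the Saa3 difference was at least 1. AU8024, at -1.22 without off-strain arrays, is the strain whose profile was not told apart from that of AU8033, which had the highest Saa3 difference.

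**Figure D2:**
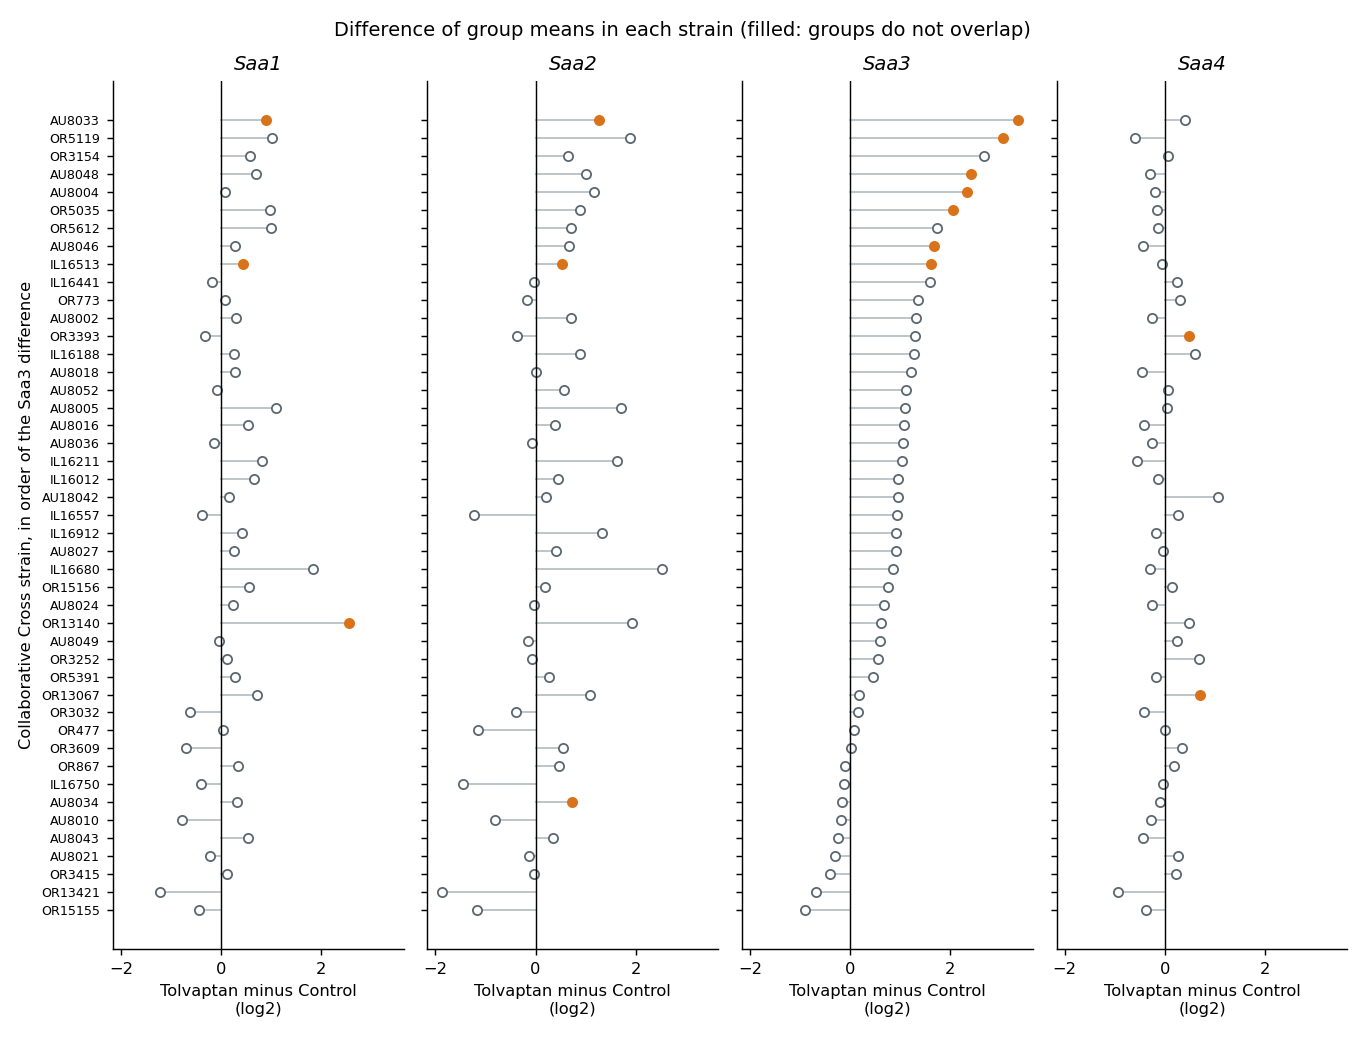
Tolvaptan minus Control (log2, difference of group means) of each member in each of the 45 strains, with strains in the order of the Saa3 difference and filled points where the groups do not overlap. All arrays are included; Saa3 runs from -0.90 in OR15155 to 3.35 in AU8033 with 7 filled strains, and Saa4 from -0.93 in OR13421 to 1.07 in AU18042 with 2.

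Saa1 separated the groups in 3 strains. In OR13140 the Control animals measured 7.28, 8.91, 9.16 and 9.88 (log2) and the Tolvaptan animals 10.28, 10.80, 11.32 and 13.10, the highest Saa1 difference of any strain at 2.57, a ratio of 5.93. In IL16513 the 4 Control animals lay within 12.71 to 12.97 and the 4 Tolvaptan animals within 13.13 to 13.38, a difference of only 0.44 that was still larger than either group's spread. AU8033 measured 11.95 to 12.75 under Control and 12.88 to 13.54 under Tolvaptan, a difference of 0.91, or 0.56 without off-strain arrays. IL16680 and AU8005 had differences of 1.85 and 1.11 with overlapping groups, and AU8005 had 1.49 without its off-strain array. The lowest differences were -1.21 in OR13421, or -1.64 without off-strain arrays, and -0.78 in AU8010, also with overlap. Without off-strain arrays 2 of 35 strains were separated.

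Saa2 separated the groups in AU8033, AU8034 and IL16513. In AU8034 the Tolvaptan animals fell within 11.30 to 11.37 (log2, SD 0.03) and the Control animals within 9.70 to 11.13, a difference of 0.73, or 0.46 without off-strain arrays. In IL16513 the ranges were 11.17 to 11.79 and 11.95 to 12.16, a difference of 0.53. In AU8033 they were 9.46 to 11.59 and 11.67 to 12.08, a difference of 1.28 that dropped to 0.31 without off-strain arrays. The highest Saa2 difference was in IL16680, where the Control animals measured 5.66, 6.81, 6.93 and 10.08 and the Tolvaptan animals 6.42, 10.87, 11.03 and 11.25. Each group there had an animal that lay with the other group, and the difference of 2.52 came with SDs of 1.90 and 2.32. OR13140 had 1.93 and OR5119 had 1.89, or 1.01 without its off-strain array. The lowest were OR13421 at -1.86 and IL16750 at -1.45, which were -2.61 and -1.77 without off-strain arrays, with OR477 then between them at -1.89. Without off-strain arrays 3 of 35 strains had Tolvaptan higher and 1 had it lower throughout.

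For Saa4 the separated strains were OR13067 (8.80 to 9.59 against 9.65 to 10.20, a difference of 0.70) and OR3393 (9.62 to 9.91 against 9.99 to 10.85, a difference of 0.48). The second probe set separated the groups in 0 strains, so neither held on it. Of the 4 Control arrays of OR13067 2 were off-strain, and without them its difference was 0.44. The highest difference, 1.07 in AU18042, rested on 1 off-strain Control array at 8.07 and was 0.34 without it. The lowest was -0.93 in OR13421, which was -0.05 without its off-strain arrays, followed by OR5119 at -0.59, or -0.73 without its off-strain array. OR5119 thus had the second highest Saa3 difference and the second lowest Saa4 difference.

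The Control level of each member also varied by strain. These means were not adjusted for scan, and the animals of a strain outside scan 1 mostly shared 1 scan. Control Saa3 was 6.99 ± 0.79 (SD, n = 47, log2) in scan 3 and 7.99 ± 1.52 (SD, n = 23) in scan 4. The part of scan in the strain means was not tested. For Saa3 the Control means ran from 5.27 ± 0.55 (SD, n = 4, log2) in OR13140, 5.56 ± 0.32 in AU8049 and 6.22 ± 0.76 in IL16441 to 8.90 ± 1.70 in OR477, 9.01 ± 2.59 in AU8043 and 9.06 ± 0.85 in OR3032. The AU8043 mean rested on 1 Control animal at 12.84, the highest Saa3 value of the study, while its other 3 animals lay between 7.24 and 8.34. All 4 Control animals of OR13140 (4.59, 5.14, 5.44 and 5.92) and of AU8049 (5.33, 5.37, 5.50 and 6.02) lay below all 4 of OR3032 (8.23, 8.44, 9.66 and 9.92). The middle of the order was dense, with a median of 7.43, and of the 44 gaps between neighbouring strains 0 exceeded the larger SD of the pair. With so many means in order, gaps between neighbours are small whether or not the strains differ, so nothing is read from this count. Without off-strain arrays OR13140 stayed the lowest and AU8024 became the highest, at 10.10 on 2 arrays, followed by OR477 at 9.73.

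**Figure D3:**
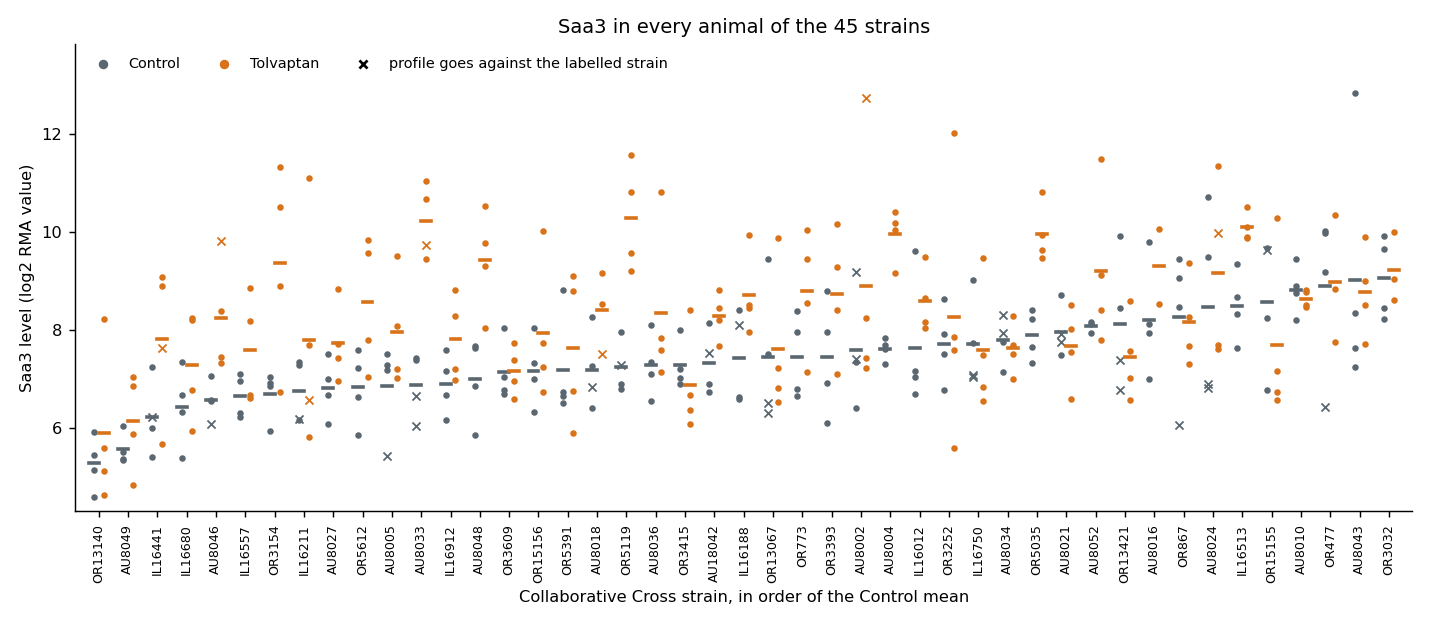
Saa3 level (log2 RMA value) of each animal in the 45 strains, ordered by the Control mean, with Control in grey, Tolvaptan in orange, a bar at each group mean and crosses for arrays whose profile goes against the labelled strain. Control means climb from 5.27 in OR13140 to 9.06 in OR3032, and in AU8033 and OR5119 all orange points lie above all grey points.

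OR13140 was low for several members. It also had the lowest Control mean of Saa1 (8.81 ± 1.10, SD, n = 4) and of Saa4 (7.94 ± 0.31), and its Saa2 mean was 7.37 ± 0.66. The next Saa1 means were 9.56 in AU8005 and 10.07 in IL16680, and the highest were 12.83 in AU8024, 12.92 in AU8021 and 12.98 in OR3032. The 4 Control animals of OR3032 spanned only 12.91 to 13.03, whereas those of IL16680 spanned 8.33 to 12.34. Without off-strain arrays the highest Saa1 means were 13.11 in OR867, 13.09 in AU8021 and 13.01 in AU8024, the last 2 on 2 Control arrays each, and AU8005 stood at 9.18. For Saa2 the lowest Control means were 6.41 ± 1.26 in AU8005, 7.12 ± 2.59 in OR3609 and 7.37 ± 1.90 in IL16680, and the highest were 11.47 in AU8021, 11.51 in IL16513 and 11.84 in AU8024. Without off-strain arrays AU8024 stood at 12.14 and AU8021 at 11.89, and AU8005 was still the lowest at 6.48. The mean of OR867, with Control arrays at 11.71, 11.87 and 12.16, then lay between those of AU8024 and AU8021. For Saa4 OR13140 was followed by IL16188 (8.44) and IL16750 (8.70), and the top was held by AU8021 (10.89), AU8043 (11.00) and AU8046 (11.15 ± 0.10). Without off-strain arrays the highest Saa4 mean was 11.27 in AU8021, on 2 arrays, then 11.18 in AU8046, and IL16188 stood at 8.26 and IL16750 at 8.81. OR13421 (8.13 and 8.46 on its 2 Control arrays), OR15155 and IL16441 then had lower means than IL16750. On the second Saa4 probe set the lowest mean was 6.13 in OR13140 with all arrays and 5.46 in OR13421 without off-strain arrays. The gaps between neighbours that exceeded the larger SD numbered 0 of 44 for Saa1, Saa2 and Saa4, and 1 of 44 for the second Saa4 probe set. As for Saa3, nothing is read from these counts. Whether sequence differences between the strains under the probes add to these levels was not tested.

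The variation of each member was divided between scan, strain, treatment and animals. Scan was fitted first, so variation shared by scan and strain was counted as scan. It took 3.23% of the sum of squares of Saa1, 3.64% of Saa2, 2.40% of Saa3 and 4.84% of Saa4, beside a median of 7.83% over all genes. Strain took 60.6% of the sum of squares of Saa4, 39.2% of that of Saa1, 37.2% of Saa2 and 29.0% of Saa3, beside a median of 27.6% over all genes. Treatment, averaged over strains, took 10.1% for Saa3, 1.64% for Saa1, 0.99% for Saa2 and under 0.001% for Saa4, beside a median of 0.12%. Strain by treatment took 11.1% for Saa3, 8.40% for Saa1, 6.71% for Saa2 and 4.82% for Saa4, with a median of 8.76% over all genes. The family was picked by its treatment differences and Control strain means, so nothing is read from setting these shares beside all genes. Animals of the same group differed widely for every member. The SD between animals was 0.92 for Saa1, 1.53 for Saa2, 1.15 for Saa3 and 0.56 for Saa4 (log2), beside a median of 0.30 over all genes. For Saa3 the SD was larger under Tolvaptan than under Control in 32 of 45 strains, with medians of 1.10 and 0.76. The same count was 16 for Saa1, 20 for Saa2 and 22 for Saa4. Without off-strain arrays strain took 67.8% for Saa4, 41.9% for Saa1, 39.3% for Saa2 and 34.0% for Saa3. Treatment then took 8.02% for Saa3, 1.07% for Saa1, 0.43% for Saa2 and under 0.001% for Saa4. The Saa3 SD was then larger under Tolvaptan in 27 of 35 strains.

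The members moved together from animal to animal to unequal degrees. After the mean of each strain and treatment and the scan were removed, Saa1 and Saa2 correlated across the 354 animals with a Pearson r of 0.91. The r was 0.89 among Control and 0.93 among Tolvaptan animals, and 0.81 to 0.94 within the 6 scans. The Saa2 probe set carries the x mark described above, and all pairs of values share an array. Saa3 correlated at 0.53 with Saa1 and at 0.54 with Saa2. Saa4 correlated at 0.33 with Saa1, 0.30 with Saa2 and 0.24 with Saa3, and its 2 probe sets at 0.95 with each other. Without the pair of animals farthest from the median Saa1 value, r was 0.91 for Saa2, 0.52 for Saa3 and 0.31 for Saa4. Over the 45 Control strain means r was 0.87 for Saa1 and Saa2, 0.57 for Saa1 with both Saa3 and Saa4, and 0.30 for Saa3 and Saa4. Without off-strain arrays these were 0.88, 0.55 and 0.54, and 0.23, and across animals Saa3 and Saa4 correlated at 0.33 and Saa1 with Saa2, Saa3 and Saa4 at 0.91, 0.55 and 0.29.

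**Figure D4:**
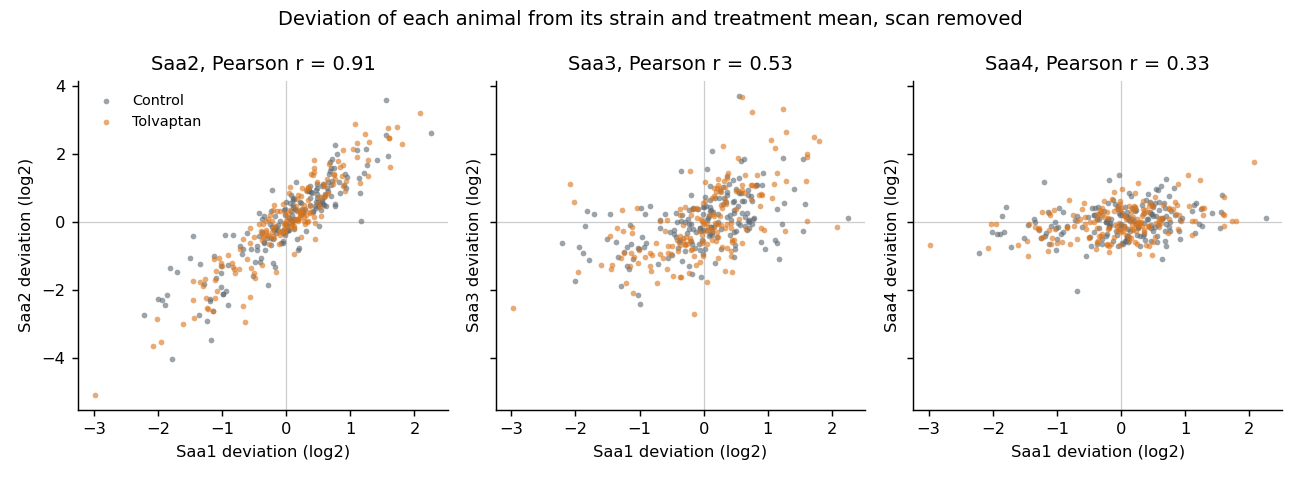
Deviation of each of 354 animals from the mean of its strain and treatment after removal of scan (log2), with Saa1 on the horizontal axis and Saa2, Saa3 or Saa4 on the vertical axis, Control in grey and Tolvaptan in orange. Points lie closest to a line for Saa2 (r = 0.91), less so for Saa3 (r = 0.53), and least so for Saa4 (r = 0.33).

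The genes outside the family most like each member across animals were ranked by r. For Saa1 the 5 highest, 4 of them on the acute phase list used below, were Lrg1, a secreted leucine-rich glycoprotein (r = 0.70), the inter-alpha-trypsin inhibitor chain Itih4 (0.66), haptoglobin Hp (0.65), lipocalin Lcn2 (0.62) and proteoglycan Prg4 (0.60). The same 5 genes stood highest for Saa2, at 0.59 to 0.67. For Saa3 they were Hp (0.65), hemopexin Hpx (0.59), the interferon-inducible Ifitm2 (0.58), Derl3 of endoplasmic reticulum-associated degradation (0.58) and Lrg1 (0.57). Those for Saa4 were the complement protease Masp1 (0.60), Zfand4 (0.56), Prg4 (0.55), the metalloreductase Steap4 (0.54) and coagulation factor F11 (0.53). Over the 45 Control strain means the highest were Ly6g2, Hp and Timm8b for Saa1 (0.51 to 0.55), and Hp, Itih4 and Lrg1 for Saa2 (0.60 to 0.69). For Saa3 they were Hpx, Pdk3 and Syt12 (0.56 to 0.59) and for Saa4 Utp18, R3hdm1 and Fam120a (0.64 to 0.68). These genes were picked as the highest of 14125, so their r values describe these arrays only. Pdk3, at a mean level of 2.37 (log2), lay below the array medians of 2.81 to 3.02, and Syt12, at 2.99, lay among them.

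The wider acute phase programme was examined through 8 gene lists, of which 91 of 111 genes could be tested with limma over all genes (moderated test of the averaged difference, two-sided, Benjamini-Hochberg at 0.05). Over all 14125 genes, 46 were higher under Tolvaptan (0.326%) and 24 lower (0.17%), and the median difference was 0.00027 (log2). Of the 91 pathway genes 1 was called, and 17 had an unadjusted p under 0.05 (limma), beside 9.56% of all genes. The list of hepatocyte acute phase genes held 21 tested genes of 24. Hp, the hemoglobin-binding plasma protein, rose by 0.07 ± 0.01 (SE, log2, limma adjusted p = 0.00357), in 35 of 45 strains, from 13.21 ± 0.16 (SD, n = 179) to 13.27 ± 0.15 (SD, n = 175). This level lies near the top of the array's range. Of the 21 genes 16 had a difference above 0 and 9 had an unadjusted p under 0.05 (limma). The median difference of the 21 was 0.05. Hp was not called without the off-strain arrays (0.05, limma adjusted p = 0.10) or with the strain as the unit (limma adjusted p = 0.123).

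Of the list's other genes with the largest differences, none was called. Lcn2, a siderophore-binding lipocalin, stood at 8.18 ± 2.58 under Control, with a difference of 0.45 ± 0.20 (SE, limma adjusted p = 0.446) and 29 of 45 strains above 0. Orosomucoid Orm2 had 0.41 ± 0.15 (limma adjusted p = 0.257), also above 0 in 29 strains. Hamp, the iron hormone hepcidin, had -0.17 ± 0.09 (limma adjusted p = 0.568), above 0 in 16 strains. Across animals 20 of the 21 genes correlated with Saa3 at an r above 0, beside a median r of 0.01 over all genes. The share of all genes above 0 was not counted, so nothing is read from this count. The mean level of the list correlated with Saa3 at 0.58 and with Saa1 at 0.64.

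**Figure D5:**
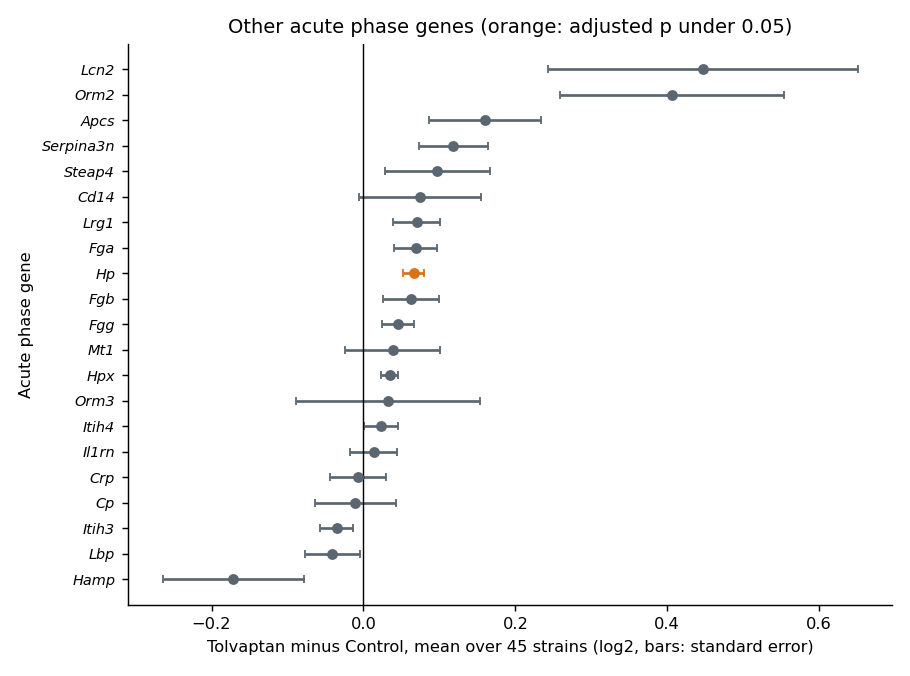
Tolvaptan minus Control averaged over 45 strains (log2, point) with its standard error (bar) for 21 acute phase genes outside the family, with the called gene in orange. Hp at 0.07 is the only called gene, and Lcn2 and Orm2 lie farther right at 0.45 and 0.41 with wider bars.

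The lists upstream of the family hold cytokines, their receptors and the signal transducers within the cell. Of the 6 tested genes of 9 on the list of inducing cytokines 0 were called by limma and 1 had an unadjusted p under 0.05. Il6, Osm and Il22 were on the list but not tested. The mean level of the tested genes was 3.16 under both treatments (medians over arrays), close to the array medians. The chemokine Cxcl1 had a difference of 0.20 ± 0.11 (SE, limma adjusted p = 0.578), and Il1a, an alarm cytokine, had -0.08 ± 0.06 (limma adjusted p = 0.728). Of 9 tested cytokine receptor genes 0 were called by limma and 1 had an unadjusted p under 0.05. The shared receptor chain Il6st stood at 0.07 ± 0.03 (limma adjusted p = 0.429) and the receptor Lifr at 0.07 ± 0.06 (limma adjusted p = 0.791). Of 20 tested signal transducers and transcription factors 0 were called by limma and 2 had an unadjusted p under 0.05. The NF-kB subunit Relb had -0.08 ± 0.04 (limma adjusted p = 0.443), and Stat3, which carries the interleukin-6 signal, had 0.07 ± 0.03 (limma adjusted p = 0.404).

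Feedback inhibitors and downstream lists were described in the same way. Of 8 tested feedback inhibitors 0 were called by limma and 2 had an unadjusted p under 0.05, namely Socs2 at 0.29 ± 0.12 (limma adjusted p = 0.364, 31 of 45 strains above 0) and Socs3 at 0.14 ± 0.06 (limma adjusted p = 0.362, 30 strains), both suppressors of cytokine signalling. Of 9 genes for proposed serum amyloid A receptors and partners 0 were called by limma and 0 had an unadjusted p under 0.05; Selenos had 0.05 ± 0.03 and the scavenger receptor Cd36 -0.05 ± 0.05. Of 11 genes for high density lipoprotein proteins 0 were called by limma, 2 had an unadjusted p under 0.05 and 2 lay above 0, with a list median of -0.02. Apolipoprotein Apoa4 had 0.08 ± 0.06 and the phospholipid transfer protein Pltp -0.06 ± 0.05. Of 7 negative acute phase genes, whose products fall in plasma during inflammation, 0 were called by limma and 0 had an unadjusted p under 0.05, with Serpina6 at 0.06 ± 0.08 and Kng1 at -0.01 ± 0.03.

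Markers of other liver cells were read beside Saa3, since macrophages also make it. In bulk tissue fewer cells of a type and less RNA per cell cannot be told apart. Of 10 Kupffer cell markers 0 were called by limma and 1 had an unadjusted p under 0.05, that with the largest difference being Cd68 at 0.14 ± 0.06 (SE, limma adjusted p = 0.364). Only 5 of the 10 markers had a difference above 0, and the median difference of the list was -0.01. The list's mean level per array was 4.40 to 7.29 under Control and 4.79 to 7.56 under Tolvaptan (log2), with medians of 6.14 and 6.09. Across animals this mean level correlated with Saa3 at 0.29. Of 8 tested neutrophil markers, 0 were called by limma and 0 had an unadjusted p under 0.05, and S100a8 had 0.16 ± 0.09 (limma adjusted p = 0.582). Their mean level was 2.86 to 6.20 under Control and 2.80 to 7.47 under Tolvaptan, with medians of 3.27 and 3.30, and correlated with Saa3 at 0.35. Of 3 tested monocyte markers 0 were called by limma and 0 had an unadjusted p under 0.05, and Plac8 had 0.07 ± 0.05 (limma adjusted p = 0.70). Their mean level was 2.90 to 5.21 under Control and 2.84 to 5.72 under Tolvaptan and correlated with Saa3 at 0.38. The adipocyte list kept 1 tested gene of 6, Fabp4, at 0.11 ± 0.06 (limma adjusted p = 0.502), with an r of 0.29. The part of these cells in the Saa3 values was not tested.

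The other marker lists were read in the same way. Stab2, which clears hyaluronan and other ligands from blood in the sinusoids, was lower by a difference of -0.19 ± 0.04 (SE, log2, limma adjusted p = 0.00104) and was the only called gene of 55 tested markers. The mean level of the 6 sinusoidal endothelial markers correlated with Saa3 at -0.04 and with Saa1 at -0.16. The 6 stellate cell markers had 0 calls by limma and 1 unadjusted p under 0.05, with Col3a1 at -0.14 ± 0.08, and an r of -0.11 with Saa3 and -0.22 with Saa1. T cell, B cell, bile duct cell and hepatocyte markers had 0 calls by limma and 0 unadjusted p-values under 0.05, with r values of 0.14, 0.07, -0.03 and -0.08 with Saa3. The largest differences among them were Cd4 at -0.05, Cd79a at -0.07, Krt19 at -0.13 and Fgb at 0.06, each not called.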

How the data were processed

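Values were taken as deposited: log2 expression values of 42597 probe sets on 354 arrays, which the authors computed with RMA in the Affymetrix Expression Console, per the submitters' processing notes. Versions, and whether all arrays were normalised together, are not given in the sources used here. Arrays have no read depth, and their number limits the precision. Of the probe sets 27691 carried 1 symbol in the platform annotation, 493 carried several and 14376 carried none; RefSeq (GRCm38.p6) listed the Entrez identifier of 27494.

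Where several probe sets with 1 symbol named a gene, the brightest on average was used, and it was kept when above the array median in at least 4 arrays (14125 genes). The model (limma 3.58.1 in R 4.3.3) had 1 mean per strain and treatment plus scan, and the contrast was the mean over 45 strains of Tolvaptan minus Control, with Benjamini-Hochberg adjustment at 0.05. Strain differences are differences of group means without scan. Correlations used residuals after removal of group means and scan. Every array came from its own animal. The fit was tested on simulated data.

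The members, gene lists and alternatives were chosen with earlier results of these data known. Named genes were the members and, per pathway list, up to 4 called genes or else the 2 with the largest absolute difference. Marker lists gave their called genes or else the 1 with the largest absolute difference. Genes like a member were the 5 with the highest r over animals and the 3 over Control strain means. Orm2, which was not called, was named outside these rules, and Hamp was added after its value was seen. Strains were the 3 highest and 2 lowest differences, those whose groups did not overlap, and the 3 highest and 3 lowest Control means; any strain could be named for Saa3. Promoter windows came from a RefSeq table. Alternatives covered probe sets, scan, scaling, filters, off-strain arrays, strains and animals; pathway counts within scans 1 to 5 were added after seeing the data. Protein sequences and the dose label were not used.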

Additional observations from a re-analysis of the deposited data

Results flagged for a closer look

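The groups of 4 animals were searched for a value far from the other 3 by Dixon's criterion at 95%, for Saa3 in all strains and for the other members in the named strains. Of 142 groups 9 held such a value (6.34%), and chance alone gives about 1 in 20.

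For Saa3 the value was high in 3 groups. A Control animal of IL16012 measured 9.61 (log2) while the others lay between 6.69 and 7.15. A Tolvaptan animal of OR15155 measured 10.28 beside 6.56 to 7.16. A Control animal of OR5391 measured 8.80 beside 6.50 to 6.73.

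Saa3 was low in a Control animal of AU8005 at 5.41 (others 7.18 to 7.51), which came from an off-strain array, and in a Control animal of OR3154 at 5.93 (others 6.86 to 7.04). In OR13421 the same off-strain Control array was low for Saa1, at 10.60 beside 12.16 to 12.43, and for Saa2, at 7.82 beside 10.82 to 11.17. A Tolvaptan animal of AU8021 measured 11.71 for Saa1 beside 12.91 to 13.13. A Tolvaptan animal of IL16680 measured 6.42 for Saa2 beside 10.87 to 11.25. The causes of these values were not tested.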

How the results depend on the processing

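Leaving out any single animal kept the averaged difference of Saa1 between 0.27 and 0.31, of Saa2 between 0.33 and 0.39, of Saa3 between 0.88 and 0.93 and of Saa4 between -0.03 and 0.0011. Scan 6 alone, with 1 strain, moved Saa1 to -0.68 and Saa3 to -0.51 (log2). Under no scan term, a 75th percentile shift, quantile normalization and the median over strains the averaged difference lay between 0.28 and 0.29 for Saa1, 0.35 and 0.41 for Saa2, 0.90 and 0.94 for Saa3, and -0.05 and -0.01 for Saa4. Strains in which Saa4 separated the groups numbered 2, but 0 on the second probe set and 1 without off-strain arrays. Pathway genes called by limma numbered 1, but 0 after a shift to a common 75th percentile (19 with an unadjusted p under 0.05), 0 without off-strain arrays (15) and 0 with the strain as the unit (16). They numbered 0 to 2 when animal 1, 2, 3 or 4 of every group was left out. Within a scan the count was 0 in scans 1, 2, 4 and 5 and 2 in scan 3. Over all genes, calls numbered 70, but 3 without animal 1 of every group, 14 without animal 2, 162 without animal 4, 44 without off-strain arrays, 300 in strains without such arrays and 21 with the strain as the unit; the causes were not tested. Each of the 20 highest or lowest strain differences, 5 per member, kept its sign without any 1 animal, but 11 moved by over 1.5 times. For Saa1 AU8005 went from 1.11 to 0.51 and AU8010 from -0.78 to -0.32 or -1.43. For Saa2 OR13140 went from 1.93 to 1.19, OR5119 from 1.89 to 1.01 and IL16750 from -1.45 to -0.69 or -2.24. For Saa3 OR13421 went from -0.69 to -0.09 or -1.14 and OR15155 from -0.90 to -0.52 or -1.76. For Saa4 AU18042 went from 1.07 to 0.34, OR3252 from 0.69 to 0.33, OR5119 from -0.59 to -0.18 or -0.95 and OR13421 from -0.93 to -0.52. No paired analysis was possible because the animal numbers are not shared between groups.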
